A study of Homo sapiens with 4 samples.

Results

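Neurofascin (NFASC) and 9 other neural adhesion genes were followed in A375 cells, a human melanoma line with mutant BRAF, before and after the cells had been made resistant to vemurafenib, an inhibitor of mutant BRAF. The 10 genes were NFASC with its L1 family relatives L1CAM and NRCAM, the cell adhesion molecules NCAM1, NCAM2, ALCAM and MCAM, the contactin CNTN1, and the ankyrins ANK2 and ANK3. NFASC was selected on its counts in these same 4 libraries, which were higher in the resistant cells, and the other 9 for their kinship or binding to it. They are 10 of 62649 gene identifiers counted, and all 10 passed the filter on low counts that left 24961 genes for testing.

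The control group was 2 libraries of parental A375 cells, and the resistant group was 2 libraries of A375 cells taken through a vemurafenib series that began at 0.1 µM and doubled weekly up to 6.4 µM. All cells grew in RPMI-1640 with fetal bovine serum and penicillin/streptomycin. The labels do not say whether vemurafenib or DMSO vehicle was present at harvest, how many resistant lines or clones were made, or whether replicates were separate cultures, so each p-value measures only the spread between these libraries. Libraries were polyA-selected, and held 72290468 and 87178097 counted reads in controls 1 and 2 and 68022689 and 85197524 in resistant replicates 1 and 2.

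Of 12 melanocyte lineage and melanoma markers edgeR called 0, with 3 at an unadjusted p under 0.05, against 13.5% of all tested genes. The 3 were CSPG4 and TYRP1, higher in resistant cells, and MITF, lower in the mean. The lineage markers SOX10 (704 to 1149 CPM, the counts of a gene per 1000000 counted reads after TMM scaling) and ERBB3 (304 to 432) were high in all 4 libraries, while the pigment genes PMEL, MLANA, TYR and DCT reached at most 2.34. CSPG4 stood at 470.4 and 1121 CPM in the controls and at 1791 and 1636 CPM in the resistant libraries (edgeR adjusted p = 0.226, DESeq2 adjusted p = 0.0148). MITF overlapped between groups, at 42.2 and 22.8 against 12.3 and 23.4 CPM (edgeR adjusted p = 0.371, DESeq2 adjusted p = 0.174). Control replicate 1 stood apart: every count in it was even. Halving those counts left the calls of all 10 genes where they were. Control replicate 1 also had the fewest genes with a count, 32101 against 36923 to 39454 in the others. Over genes averaging at least 10 CPM, log2 levels correlated at 0.962 between the controls and at 0.978 between the resistant libraries. Control 2 correlated with resistant 2 at 0.966, so more closely than with control 1, and control 1 with resistant 1 at 0.916. Levels are given in CPM, and between genes they are compared only as RPKM, which is CPM per kilobase of summed exon length. That length joins all annotated exons of a gene, 21271 bases for NFASC and 7269 for L1CAM. A transcript may use fewer of them, so ratios, shares and orders between genes depend on this length. Fold changes are log2, resistant over control, from 1 edgeR fit to all tested genes, with a standard error (SE).

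Neurofascin is a single-pass membrane protein with immunoglobulin and fibronectin domains outside the cell and a tail that binds ankyrins. On myelinated nerve fibres a neuronal isoform clusters sodium channels at the node of Ranvier and the axon initial segment, held there by ankyrin-G. A glial isoform at the paranode binds contactin-1 and its partner CASPR. L1CAM, ALCAM and MCAM are also known as adhesion molecules of melanoma cells.

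NFASC lies at chr1:204828651-205022822 on the plus strand of GRCh38 (ENSG00000163531.17), and none of its exonic bases overlaps another gene. RefSeq (GRCh38.p14) gives it 2 start windows of 300 bases, each from 250 bases before to 50 bases after a start, 42.2 kb apart. They are printed 5′ to 3′ with CG dinucleotides in capitals, because the other values are set beside NFASC and its starts differ in composition.

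NFASC start window at chr1:204828402-204828701, plus strand: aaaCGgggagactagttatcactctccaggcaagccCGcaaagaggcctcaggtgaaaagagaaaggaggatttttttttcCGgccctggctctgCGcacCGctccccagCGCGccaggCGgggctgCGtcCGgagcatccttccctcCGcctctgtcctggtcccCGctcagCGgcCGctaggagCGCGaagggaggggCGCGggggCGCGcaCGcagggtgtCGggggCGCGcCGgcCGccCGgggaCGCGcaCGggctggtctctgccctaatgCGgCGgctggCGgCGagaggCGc

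NFASC start window at chr1:204870612-204870911, plus strand: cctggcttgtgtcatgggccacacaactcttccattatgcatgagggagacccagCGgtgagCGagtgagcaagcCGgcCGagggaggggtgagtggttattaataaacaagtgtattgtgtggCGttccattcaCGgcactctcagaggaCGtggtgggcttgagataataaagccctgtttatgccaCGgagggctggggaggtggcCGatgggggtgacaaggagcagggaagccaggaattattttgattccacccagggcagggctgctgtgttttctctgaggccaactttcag

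The upstream window holds 35 CG dinucleotides at a GC content of 70.7%, and 14.1% of the 35116 RefSeq windows hold as many. The downstream window holds 9 at 55.0% GC, a number reached by 58.4% of windows, against a median of 14. Of 25 NFASC transcripts in GENCODE release 29, 5 start in the upstream window, 2 in the downstream one and the rest in neither. Gene counts do not tell transcript starts apart, so which start the resistant cells used was not analysed here.

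NFASC stood at 7.21 CPM in control replicate 1 (516 counts) and 8.35 CPM in control replicate 2 (723 counts). It stood at 45.6 CPM in resistant replicate 1 (3244 counts) and 34.7 CPM in resistant replicate 2 (2867 counts). Both resistant libraries were far above both controls, and the groups did not overlap. The means were 7.78 ± 0.805 CPM in control and 40.2 ± 7.75 CPM in resistant cells (SD, n = 2 each), a fitted log2 difference of 2.37 ± 0.22 (SE) or 5.16-fold. This value chose the gene, so it is given as a description with no test. The log2 difference lay at the percentile 99.1 of all tested genes, whose median was 0.01. In a bulk sample, more cells with NFASC and more NFASC RNA per cell cannot be told apart.

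**Figure D1:**
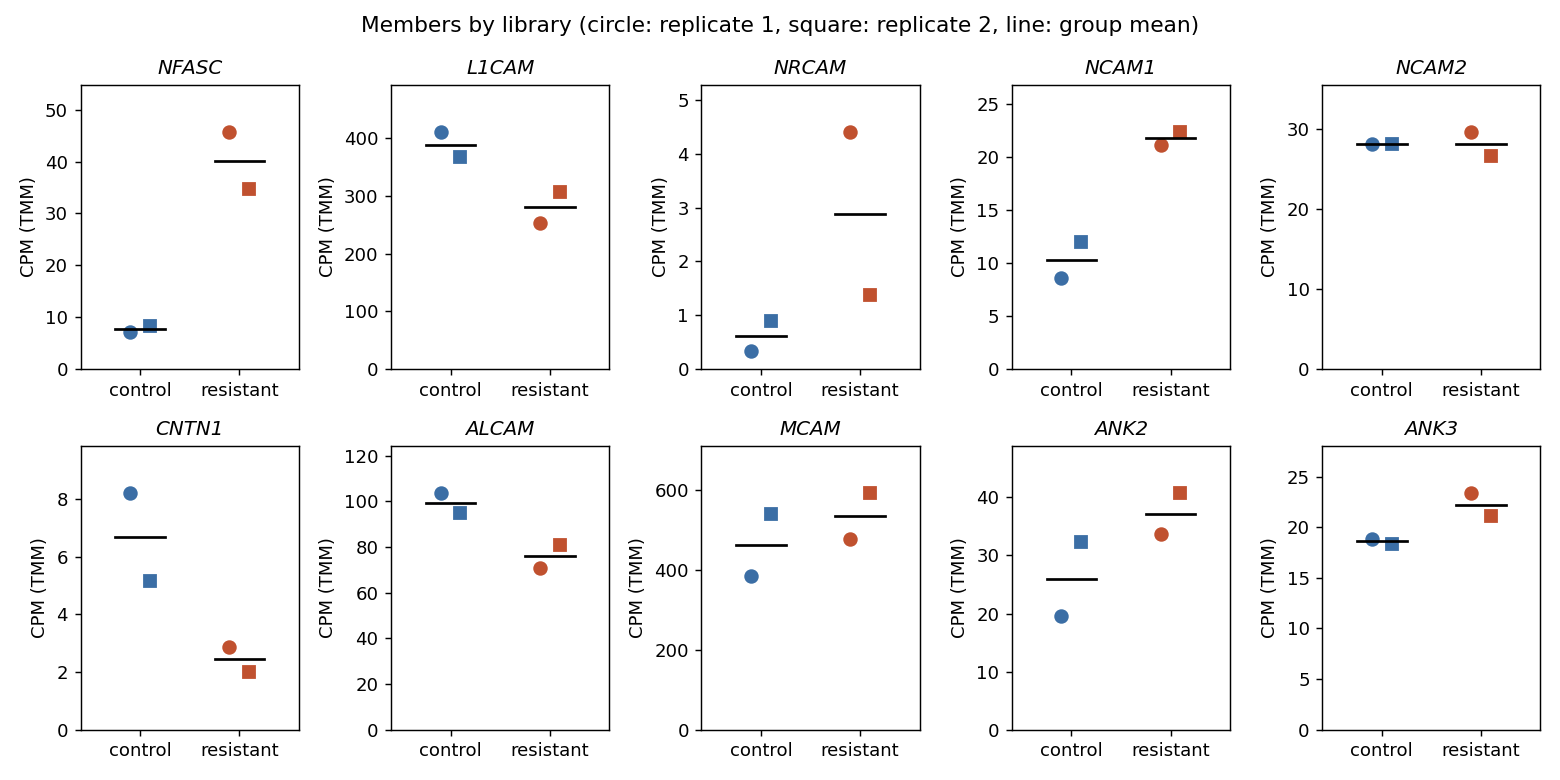
Level of each of the 10 genes in the 4 libraries, in CPM on a linear axis from 0 with its own range per gene. Circles are replicate 1, squares replicate 2 and lines group means. NFASC shows the widest gap upward, CNTN1 the widest downward, and NCAM2 and MCAM overlap between groups.

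L1CAM, the founding member of the family and a homophilic adhesion protein, was the family's most abundant transcript. It stood at 410.5 and 367 CPM in the controls and at 254 and 308 CPM in the resistant libraries. Both resistant libraries were lower, without overlap, but the log2 difference of -0.47 ± 0.18 did not pass the test (edgeR adjusted p = 0.315, unadjusted p = 0.0344). Of its exonic bases, 4.94% overlap a gene on the opposite strand and 6.04% one on the same strand, and counting ignored strand.

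NRCAM, the L1 family protein that joins neurofascin at nodes of Ranvier, was scarce. It had 24 and 77 counts in the controls (0.335 and 0.889 CPM), 313 in resistant replicate 1 (4.40 CPM) and 113 in resistant replicate 2 (1.37 CPM). The groups did not overlap, but the gap rested largely on resistant replicate 1. The log2 difference was 2.22 ± 0.65 (edgeR adjusted p = 0.175, DESeq2 adjusted p = 0.00521). Without resistant replicate 1 it was 1.16, and without control replicate 2 it was 3.10. CHL1, the remaining family member, had 0, 0.358, 0.0844 and 0.0484 CPM in control 1, control 2, resistant 1 and resistant 2, too few counts to be tested.

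Per length, the family's make-up moved from nearly pure L1CAM toward a small NFASC share. NFASC was 0.596% and 0.769% of the summed RPKM of the 4 L1 family genes in the controls, and 5.70% and 3.69% in resistant replicates 1 and 2. L1CAM exceeded NFASC 166.6-fold and 128.8-fold in the controls, and 16.3-fold and 26.0-fold in the resistant libraries. L1CAM thus remained at 92.8% or more of the family in every library. The family's summed RPKM was 56.9 and 51.1 in control and 37.6 and 44.1 in resistant cells. NFASC's level enters each of these shares, so they too are a description.

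NCAM1, the neural cell adhesion molecule that carries polysialic acid, stood at 8.61 and 12 CPM in the controls and at 21.2 and 22.4 CPM in the resistant libraries. The resistant libraries lay close together and above both controls. The log2 difference of 1.08 ± 0.23 missed the threshold (edgeR adjusted p = 0.0766), and DESeq2 called it (adjusted p = 0.00129). Without control replicate 2 the log2 difference was 1.34, and without control replicate 1 it was 0.86. Exons of other genes on the opposite strand overlap 8.09% of NCAM1's exonic bases.

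NCAM2, its paralogue known from olfactory axons, was level. It stood at 28.1 CPM in both controls and at 29.6 and 26.7 CPM in resistant replicates 1 and 2, so the control values fell between the resistant ones. The log2 difference was 0.00 ± 0.17 (edgeR adjusted p = 0.997).

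CNTN1 encodes contactin-1, a glycosylphosphatidylinositol-anchored protein that glial neurofascin binds at the paranode. It stood at 8.22 and 5.15 CPM in the controls and at 2.88 and 2.01 CPM in the resistant libraries. Both resistant libraries were under both controls, opposite in direction to NFASC. The log2 difference was -1.45 ± 0.34 (edgeR adjusted p = 0.100, DESeq2 adjusted p = 0.00200). It was -1.75 without control replicate 2, and -1.08 without control replicate 1.

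ALCAM, an immunoglobulin adhesion molecule that binds itself and CD6, stood at 103.6 and 94.7 CPM in the controls and at 70.7 and 80.9 CPM in the resistant libraries. The resistant libraries were lower without overlap, at a log2 difference of -0.39 ± 0.17 (edgeR adjusted p = 0.372). MCAM, the melanoma cell adhesion molecule, stood at 385 and 539.5 CPM in the controls and at 478 and 593 CPM in the resistant libraries. Its groups overlapped, since control replicate 2 exceeded resistant replicate 1, and the log2 difference was 0.21 ± 0.22 (edgeR adjusted p = 0.762). It was -0.01 without control replicate 1 and 0.48 without control replicate 2. Genes on the opposite strand overlap 6.86% of MCAM's exonic bases.

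The ankyrins tie neurofascin and its relatives to the spectrin skeleton. ANK2, which encodes ankyrin-B, stood at 19.7 and 32.3 CPM in the controls and at 33.6 and 40.8 CPM in the resistant libraries. Control replicate 2 came within a small margin of resistant replicate 1, and the log2 difference was 0.52 ± 0.26 (edgeR adjusted p = 0.446). It was 0.92 without control replicate 2, and 0.21 without control replicate 1. ANK3, which encodes ankyrin-G, the ankyrin that anchors neuronal neurofascin, stood at 18.9 and 18.4 CPM in the controls and at 23.4 and 21.1 CPM in the resistant libraries. Its groups did not overlap, at a log2 difference of 0.26 ± 0.18 (edgeR adjusted p = 0.626). Genes on the opposite strand overlap 4.77% of its exonic bases.

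**Figure D2:**
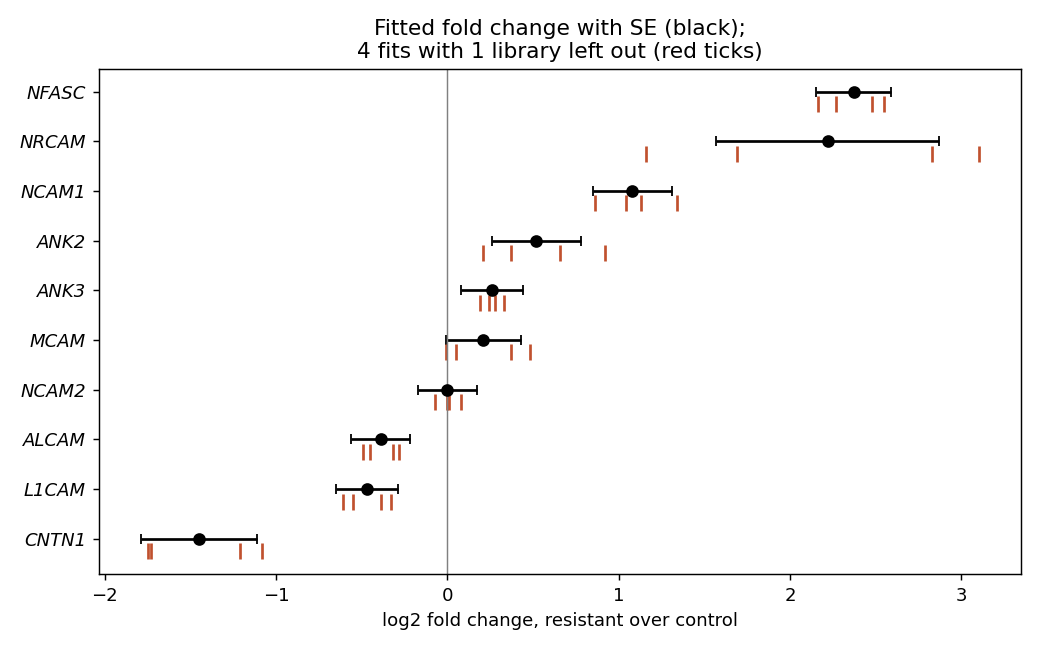
Fitted log2 difference, resistant over control, of the 10 genes on the x axis, with bars of 1 SE. Red ticks give the value with each of the 4 libraries left out. NFASC keeps between 2.16 and 2.55, whereas NRCAM ranges from 1.16 to 3.10, and the ticks of MCAM and NCAM2 reach across 0.

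Among the 9 genes beside NFASC, edgeR called 0 at an adjusted p of 0.05, where it called 1.09% of all tested genes (0.577% higher and 0.513% lower in resistant cells). An unadjusted p under 0.05 was reached by 4 of the 9 (L1CAM, NRCAM, NCAM1 and CNTN1), against 13.5% of all tested genes. DESeq2 called 3 of the 9, NRCAM and NCAM1 higher and CNTN1 lower, against 4.99% of the genes it tested. The groups did not overlap in 7 of the 9, against 44.6% of all tested genes, with 4 higher and 3 lower. The median log2 difference of the 9 was 0.21. The 9 were named with results of these libraries known, so nothing is read from these counts.

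Ordered by mean RPKM, the control cells ran MCAM (62.3), L1CAM (53.5), ALCAM (13.8), NCAM2 (3.39), CNTN1 (0.874), NCAM1 (0.809), ANK3 (0.721), ANK2 (0.471), NFASC (0.366) and NRCAM (0.0768). Neighbours whose library ranges overlapped there were MCAM and L1CAM, CNTN1 and NCAM1, NCAM1 and ANK3, and ANK2 and NFASC. In resistant cells the order was MCAM (72.2), L1CAM (38.6), ALCAM (10.6), NCAM2 (3.40), NFASC (1.89), NCAM1 (1.71), ANK3 (0.861), ANK2 (0.674), NRCAM (0.362) and CNTN1 (0.320). Only NFASC with NCAM1 and NRCAM with CNTN1 overlapped as neighbours. The 4 genes at the top of the order were the same in both groups. NFASC went from position 9 to position 5 in the mean, and CNTN1 from position 5 to position 10. In resistant replicate 2 alone NFASC was at position 6, after NCAM1.

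**Figure D3:**
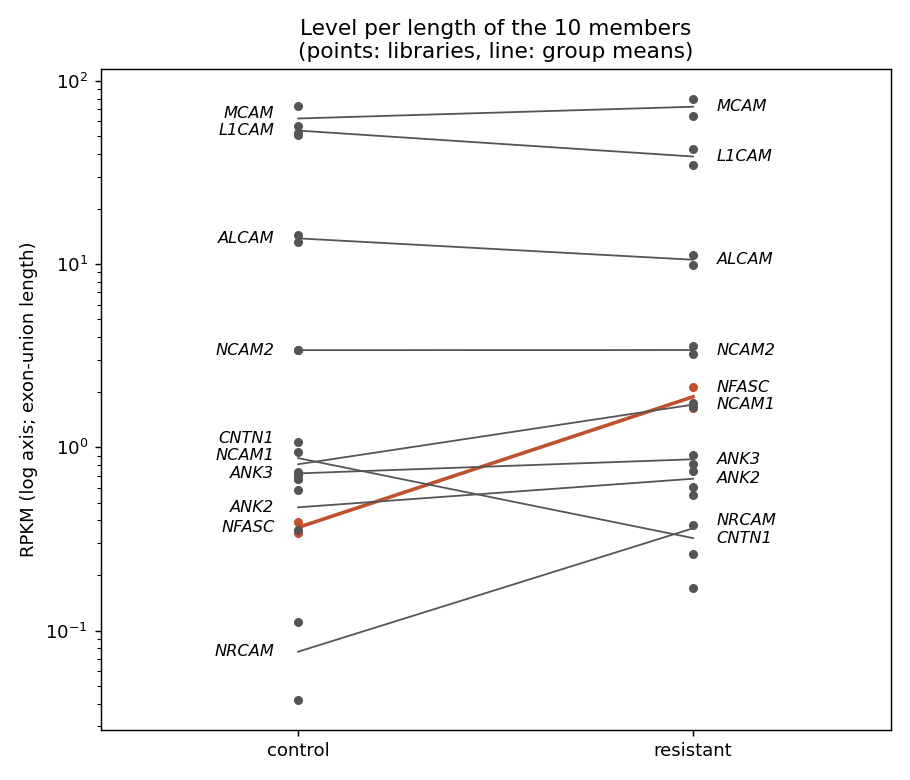
Mean RPKM of the 10 genes in control and resistant cells on a log axis, with points for the 2 libraries of each group. The NFASC line (red) climbs from 0.366 to 1.89, past those of ANK2, ANK3 and NCAM1, and the CNTN1 line crosses it downward. MCAM, L1CAM, ALCAM and NCAM2 stay above all others.

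Genes near NFASC on chromosome 1 differed among themselves. Within 1 Mb of either end of the gene, 49 genes were tested, with log2 differences from -5.22 to 1.98 and a median of 0.04. Of these, edgeR called 0 higher and 1 lower. The gene called was KISS1, which encodes the kisspeptins with its start at -632 kb from that of NFASC (53.6 and 15.0 CPM in the controls, 0.281 and 1.52 CPM in the resistant libraries, edgeR adjusted p = 0.0415). Among the 22 neighbours with a mean of at least 5 CPM, the highest log2 difference was 0.67 and the median -0.11. The 3 nearest tested genes upstream were scarce and had log2 differences of 1.95 ± 0.88 (LRRN2), 1.98 ± 0.80 (ENSG00000240219) and 1.88 ± 0.86 (ENSG00000240710), and none passed the test. LRRN2, a neuronal leucine-rich repeat protein, had 0.168, 1.39, 4.71 and 1.38 CPM in control 1, control 2, resistant 1 and resistant 2 (edgeR adjusted p = 0.394). In the same order ENSG00000240219 had 0.280, 0.728, 3.43 and 0.605 CPM, and ENSG00000240710 had 0.0559, 0.312, 1.08 and 0.315 CPM. In all 3, resistant replicate 1 was the highest library and resistant replicate 2 lay near control replicate 2, unlike NFASC. On the other side CNTN2, another contactin, had 0.280, 0.473, 0.506 and 0.508 CPM in the same order. For each of the other 9 members, 0 neighbours within 1 Mb were called, out of 2 to 61 tested.

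**Figure D4:**
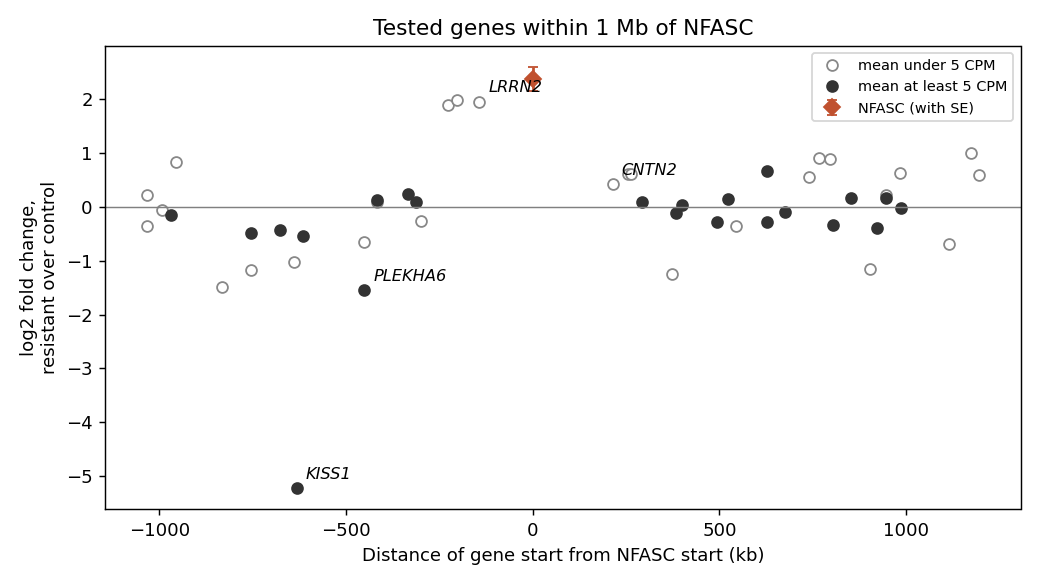
Log2 difference, resistant over control, of the tested genes within 1 Mb of either end of NFASC, against the distance of each gene's start from that of NFASC in kb. Filled points have a mean of at least 5 CPM. NFASC (diamond, with SE) lies above every other point, and KISS1 lies lowest at -5.22. The 3 scarce upstream genes (open) close under NFASC rest largely on resistant replicate 1.

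The genes whose profile over the 4 libraries lay nearest to that of NFASC were LRP3, CDC42EP5, SHANK3, PTPRU and BMP6. Likeness was the Euclidean distance between log2 CPM profiles, each centred on its gene's mean, over the 10088 tested genes that averaged 10 CPM or more. LRP3, an LDL receptor relative, was nearest at a distance of 0.400, with 5.93 and 4.58 CPM in the controls and 28.3 and 22.3 CPM in the resistant libraries. PTPRU, an adhesive receptor phosphatase, was at 0.510, with 10.1 and 9.51 CPM against 38.5 and 34.8 CPM. The other 3 lay at 0.438 (CDC42EP5), 0.465 (SHANK3) and 0.574 (BMP6). With 4 libraries, a short distance says only that a gene differs by a like amount in the same libraries.

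Partners and relatives of these genes were read from 6 wider lists. Together with CHL1 they held 162 genes besides the 10, of which 140 were tested, 1 was called higher, 2 were called lower and 40 reached an unadjusted p under 0.05. Their median log2 difference was -0.03, against 0.01 over all tested genes. DESeq2 called 11 higher and 6 lower. Over all tested genes, edgeR called 1.09%, 13.5% reached an unadjusted p under 0.05 and DESeq2 called 4.99%, and each list's counts stand beside these shares. The lists were written with results of these data known, so the counts are a description.

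The gene called higher was LSAMP, a glycosylphosphatidylinositol-anchored adhesion protein of the limbic system. It stood at 2.74 and 3.12 CPM in the controls and at 13.8 and 8.04 CPM in the resistant libraries, without overlap, and rose by 1.89 ± 0.32 on the log2 scale (edgeR adjusted p = 0.0436). The call ended when either resistant library was left out (adjusted p = 0.130 without replicate 1 and 0.0889 without replicate 2). In its list of immunoglobulin adhesion molecules, 28 of 34 genes were tested, 7 reached an unadjusted p under 0.05, DESeq2 called 5 higher and the median was 0.00, NCAM1, NCAM2, ALCAM and MCAM included. BOC, a Hedgehog co-receptor, missed the threshold at 8.08 and 7.46 CPM against 16.2 and 15.8 CPM (edgeR adjusted p = 0.0651), as did ICAM1, a leukocyte integrin ligand, at 71.6 and 104.0 against 202 and 129 CPM (edgeR adjusted p = 0.174). CADM4, an adhesion molecule of glia, stood at 115.0 and 135.5 against 78.4 and 93.8 CPM (edgeR adjusted p = 0.236). The abundant BSG (basigin) and KIRREL1 overlapped between groups.

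CNTN3, a contactin like CNTN1, was called lower. It had 70 and 94 counts in the controls (0.978 and 1.09 CPM) and 8 and 2 counts in the resistant libraries (0.112 and 0.0242 CPM), a fitted log2 difference of -3.93 ± 0.67 (edgeR adjusted p = 0.0463). With library totals in place of TMM the adjusted p was 0.0508, and without resistant replicate 2 it was 0.183. In the list of contactins and CASPR proteins 9 of 12 genes were tested, with 2 at an unadjusted p under 0.05, 2 called lower by DESeq2 and a median of -0.10. CNTNAP1, which encodes CASPR, the partner of contactin-1 opposite glial neurofascin, stood at 62.8 and 72.1 CPM in the controls and at 65.4 and 60.4 CPM in the resistant libraries. Its groups overlapped (log2 difference -0.10 ± 0.17, edgeR adjusted p = 0.867). CNTNAP3 and CNTNAP3B are near-identical copies whose counts are uncertain, and both overlapped between groups.

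The ankyrin and spectrin scaffold list had all 21 genes tested and 0 called by edgeR and by DESeq2, with 4 at an unadjusted p under 0.05 and a median of -0.16. SPTAN1 and SPTBN1, the spectrin chains common outside red cells, stood at 275 to 399 and 464 to 514 CPM across the 4 libraries. Of the genes averaging at least 5 CPM, the 3 with the smallest p were lower in both resistant libraries. ADD3, an adducin that caps actin at the spectrin lattice, stood at 91.0 and 92.6 CPM in the controls and at 65.9 and 62.2 CPM in the resistant libraries (edgeR adjusted p = 0.189). EZR (ezrin) stood at 179.9 and 110.5 against 89.0 and 85.9 CPM, and EPB41L2 at 193.8 and 142.7 against 108.0 and 121.9 CPM (edgeR adjusted p = 0.225 and 0.278). MSN (moesin), at 472 to 542 CPM, overlapped between groups.

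Of the node of Ranvier and axon initial segment partners, 28 of 34 were tested and edgeR called 0, with 4 higher and 2 lower at an unadjusted p under 0.05. Their median log2 difference was 0.34. DESeq2 called 1, SDC3 (syndecan-3), which stood at 73.4 and 125.9 CPM in the controls and at 157 and 199 CPM in the resistant libraries (edgeR adjusted p = 0.216). GLDN encodes gliomedin, the Schwann cell ligand that gathers neurofascin at nodes, and stood at 4.47 and 4.61 CPM against 3.53 and 4.56 CPM, overlapping (edgeR adjusted p = 0.866). NINJ1, a nerve injury adhesion protein, stood at 37.5 and 48.7 against 58.0 and 59.8 CPM (edgeR adjusted p = 0.349). FGF13, which binds sodium channels, stood at 9.98 and 13.2 against 6.13 and 7.40 CPM (edgeR adjusted p = 0.213).

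For several genes of this list control replicate 1 was the lowest library by a wide margin. TNC, the matrix protein tenascin-C, stood at 202 and 837 CPM in controls 1 and 2 and at 1257 and 1177 CPM in the resistant libraries (edgeR adjusted p = 0.381). The sodium channel gene SCN9A stood at 0.950 and 4.45 against 5.80 and 8.95 CPM (edgeR adjusted p = 0.366). SDC4 (syndecan-4) was at 216 to 369 CPM and overlapped between groups. Without control replicate 1, the log2 differences were 0.54 for TNC and 0.73 for SCN9A.

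Among the proteases, kinases and signalling partners of L1 and NCAM, 26 of 30 genes were tested and edgeR called 0, with 7 at an unadjusted p under 0.05 (against 13.5% of all tested genes) and a median of 0.00. DESeq2 called 2 higher and 1 lower. The widest difference was that of GDNF, a growth factor that NCAM1 can bind, named here after its values were seen. GDNF stood at 0.615 and 1.89 CPM in the controls and at 9.06 and 7.18 CPM in the resistant libraries, a log2 difference of 2.68 ± 0.49 (edgeR adjusted p = 0.0559, DESeq2 adjusted p = 6.1e-08). NRP1 (neuropilin-1), the semaphorin co-receptor that pairs with L1CAM, stood at 109 and 133 CPM in the controls and at 52.7 and 66.3 CPM in the resistant libraries. The resistant values lay well under the controls, but the log2 difference of -1.02 ± 0.19 missed the threshold (edgeR adjusted p = 0.0589, DESeq2 adjusted p = 9.3e-04). Its ligand gene SEMA3A stood at 178 and 105 against 83.4 and 87.7 CPM (edgeR adjusted p = 0.250). FGFR1, a receptor that NCAM1 can engage, stood at 64.2 and 47.1 against 35.2 and 33.1 CPM (edgeR adjusted p = 0.158), and the gamma-secretase subunit gene NCSTN at 91.8 and 109.9 against 155 and 143 CPM (edgeR adjusted p = 0.195). PRNP, APH1A, AP2M1 and PTPRA, the most abundant per length, overlapped between groups.

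In the list of synaptic adhesion molecules, 35 of 37 genes were tested, 0 were called higher, 1 was called lower and 16 reached an unadjusted p under 0.05 (against 13.5% of all tested genes), with a median of -0.07. DESeq2 called 4 higher and 4 lower. TENM2, a teneurin that binds latrophilins across the synapse, stood at 5.11 and 13.1 CPM in the controls and at 1.07 and 1.51 CPM in the resistant libraries, and fell by 2.81 ± 0.47 on the log2 scale (edgeR adjusted p = 0.0436). Its call ended without resistant replicate 1 (adjusted p = 0.0714) or replicate 2 (0.183). SLITRK1 and SLITRK2, which bind receptor phosphatases, missed the threshold. SLITRK1 stood at 3.88 and 5.61 against 11.8 and 11.8 CPM (edgeR adjusted p = 0.0673), and SLITRK2 at 3.19 and 4.53 against 8.95 and 11.5 CPM (edgeR adjusted p = 0.0684). Their partner gene PTPRD stood at 16.8 and 20.7 against 32.5 and 28.2 CPM, and its paralogue PTPRF at 967 and 715 against 442.5 and 589 CPM (edgeR adjusted p = 0.159 and 0.215). NLGN2, a neuroligin, stood at 178.5 and 128 against 95.8 and 84.9 CPM (edgeR adjusted p = 0.144). CLSTN1 (calsyntenin-1) stood at 246 and 243 against 197 and 180.3 CPM (edgeR adjusted p = 0.381), and PTPRS overlapped between groups.

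**Figure D5:**
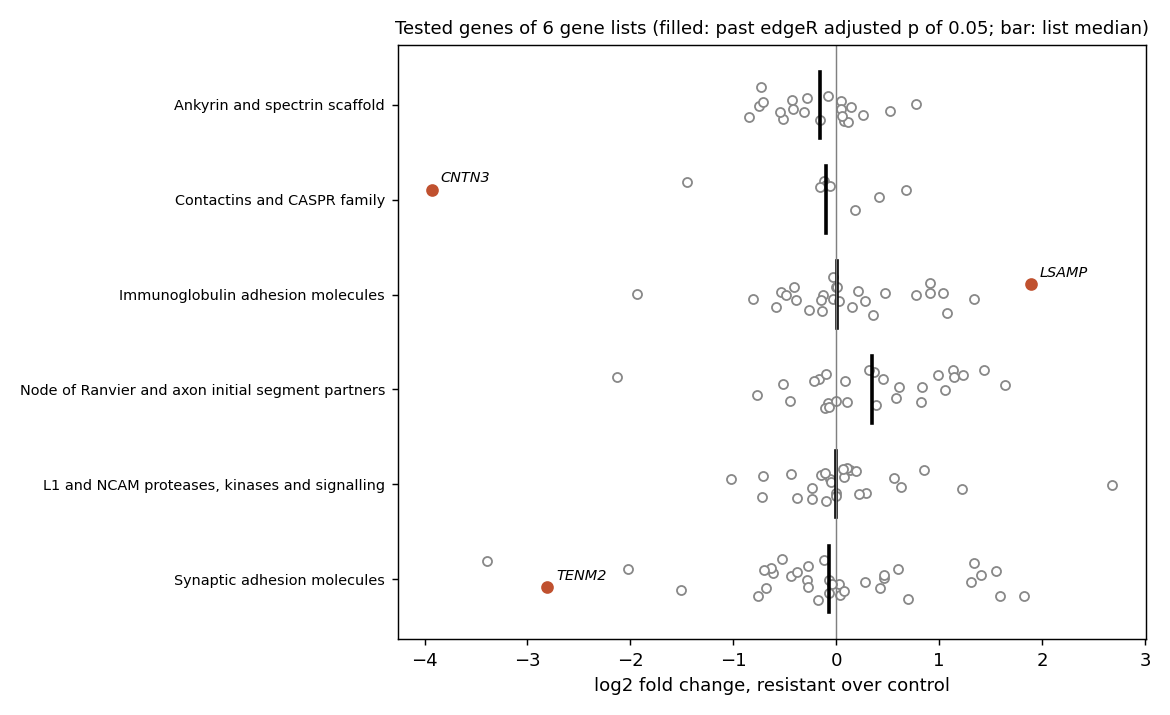
Log2 difference, resistant over control, of each tested gene in 6 lists, with the list median as a bar. Filled points passed the edgeR adjusted p of 0.05: LSAMP to the right, CNTN3 and TENM2 to the left. The medians lie between -0.16 and 0.34.

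Markers of the cell types that use these molecules were read beside them. Of 10 neuronal markers, 8 were tested and 1, NEFL (neurofilament light chain), was called higher (1.51 and 0.704 CPM in the controls, 6.39 and 5.64 in the resistant libraries, edgeR adjusted p = 0.0415). Of the 8, 7 had a log2 difference above 0, against 50.5% of all tested genes, and SNAP25 was lower at -0.8. The groups did not overlap in 3 of the 8 (NEFL, NEFM and MAP2), against 44.6% of all tested genes. SYT1 stood at 16.4 and 48.7 CPM in the controls and at 31.7 and 44.6 CPM in the resistant libraries, and TUBB3 at 16.3 to 20.4 CPM in all 4. STMN2 and ELAVL4 reached at most 0.0577 CPM. The list's summed level was 42.9 and 73.4 CPM in the controls against 67.9 and 74.1 CPM. The summed level of the Schwann cell and myelin markers was 224 and 239 against 276 and 254 CPM, and MAL was at 0 in all 4 libraries. The summed leukocyte, fibroblast and endothelial markers reached at most 2.55, 15.3 and 49.1 CPM in any library. KDR alone gave 44.3 of the 49.1 CPM, which was the endothelial sum of resistant replicate 1. Of 6 keratinocyte markers, 5 were tested and KRT14 was called lower, at 1.62 and 2.08 against 0.31 and 0.31 CPM. The other 4 tested had log2 differences above 0. The summed level of the keratinocyte markers was 49.4 and 63.2 against 59.2 and 89.9 CPM. Nearly all of it was KRT10, at 47.5 and 60.2 against 57.7 and 89.1 CPM. The part of these genes in the NFASC values was not tested.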

How the data were processed

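The authors deposited raw counts per gene, 1 file per library. Per the file headers they came from featureCounts 2.0.0 with GENCODE release 42, with no strand or paired-end option set. By that program's defaults this counts reads of either strand and each mate singly. STAR, DESeq2 and GRCh38 are named in the submitters' processing notes. A further deposited table of the authors holds log2 values for an unnamed comparison.

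Of 62649 identifiers, 62625 matched a symbol. Genes were filtered with filterByExpr, scaled with TMM and compared by the quasi-likelihood F test of edgeR (version 4.0.16, limma 3.58.1, R 4.3.3), two-sided, with group as the only term and Benjamini-Hochberg adjustment over 24961 genes. The biological coefficient of variation was 25.5%, on 2 residual degrees of freedom and 5.69 prior ones. SE is the log2 difference divided by the root of F. The fit was tested on simulated data. A count of 3 corresponds to 0.0346 to 0.0422 CPM, which covers counting error only. Control replicate 1 held 0 odd counts, so a count of 3 did not occur there. Whether its counts and total exceed its true read numbers was not tested. Replicates were not duplicates: chi-square over its degrees of freedom was 117.9 between controls and 63.1 between resistant libraries. Resistant files are numbered 5 and 6 but the labels 3 and 4, so each was read under its own record.

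The members and lists were chosen with earlier results of these data known. Named were the members, CHL1, GLDN, CNTNAP1, the 5 profiles nearest to NFASC and, in each list, genes past the threshold, up to 4 with the smallest p (mean of at least 5 CPM) and up to 4 with the highest RPKM. Alternatives were DESeq2 1.42.0, other scalings, no filter, each library left out, a replicate block, ordering without length, and control replicate 1 halved. A result on the Schwann cell and myelin markers is not reported here.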

Additional observations from a re-analysis of the deposited data

How the results depend on the processing

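The number of genes called depended on the setting. Over all genes it was 272 as reported, 1866 with no filter on low counts, 1222 with DESeq2, and between 16 and 2166 with 1 library left out. Members past the threshold numbered 4 with no filter, 4 with DESeq2 and between 1 and 5 with 1 library left out. Each of these counts holds NFASC, which was chosen on this contrast and is not tested. List genes called, members included, numbered 4 as reported, 32 with no filter, 21 with DESeq2 and between 1 and 39 with 1 library left out. The cause was not tested. RLE factors gave 300 genes and 5 list genes, and halving control replicate 1 gave 325 and 6, with no call changed among the members and the genes named by rule.

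The labels do not say whether same-numbered libraries were made together. The deviations of replicate 1 in control and resistant cells correlated at 0.002. With 2 libraries a group, this value cannot show whether a batch was shared. With the replicate number as a block, 64 genes and 1 list gene were called, the calls of CNTN3, LSAMP and TENM2 ended (adjusted p = 0.0995, 0.0942 and 0.0530), and NFASC stood at 2.36.

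NFASC ranged from 2.16 to 2.55 when each library was left out. By CPM with no length it ranked 8 in control and 4 in resistant cells. Leaving out a library turned the direction of these log2 differences: NCAM2 -0.07 to 0.08, MCAM -0.01 to 0.48, MSN -0.03 to 0.17, SPTBN1 -0.02 to 0.13, CNTNAP3 -0.42 to 0.17, CNTNAP1 -0.20 to 0.01, CNTNAP3B -0.27 to 0.13, BSG -0.17 to 0.13, KIRREL1 -0.12 to 0.17, SDC4 -0.25 to 0.53, PRNP -0.12 to 0.86, AP2M1 -0.21 to 0.13, PTPRA -0.18 to 0.00 and PTPRS -0.17 to 0.10. No other setting turned a direction. With 2 libraries a group, the differences in L1CAM and ALCAM were not detectable after adjustment.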

Other observations

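The authors' deposited table of log2 values for 1533 genes, which names no comparison, lists 4 of the 10 members. In the authors' deposited table NFASC has 2.42, NCAM1 1.05, CNTN1 -1.45 and L1CAM -0.47. NRCAM, NCAM2, ALCAM, MCAM, ANK2 and ANK3 are not in it. Of the 1388 genes in the authors' deposited table that were tested here, 1386 have the same sign as the difference of resistant over control cells computed here, and 1086 lie within 0.1 of it. LSAMP has 1.94, CNTN3 -7.48 and TENM2 -3.00 in the authors' deposited table, against 1.89, -3.93 and -2.81 here.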
